A study of Mus musculus with 10 samples.

Results

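The genes described are 39 members of the machinery that copies DNA: the factors that license replication origins, the helicase that opens the helix, the enzymes at the fork, the enzymes that make deoxynucleotides, and the regulators of the passage from G1 into S phase. They were taken by gene symbol from a list drawn up with earlier results of these data known, and all 39 were among the 20611 genes of each deposited table. They were measured by mRNA sequencing in whole skin of 5 Klk6+ mice and 5 WT mice, each group with 3 males (mice 1 to 3) and 2 females (mice 4 and 5), aged 14 to 16 weeks. Klk6+ mice carried Tetos-Klk6, a Myc/His-tagged mouse Klk6 transgene, together with the K5-tTA driver, in which a bovine Keratin 5 promoter drives the transactivator in keratinocytes and some other stratified squamous epithelia. The transgene is on without doxycycline (Tet-off), and per the labels Klk6+ mice were put back on doxycycline chow at 10 to 11 weeks of age, before tissue was taken. No doxycycline return is recorded for WT mice, so the chow and the transgene cannot be told apart between the groups. WT mice were littermates without transgenes or with only 1 of them, Tetos-Klk6 or K5-tTA, which alone does not express Klk6; the lines were backcrossed to C57BL/6. Klk6 encodes kallikrein-related peptidase 6, a secreted serine protease, and the study asked what its excess in keratinocytes does to skin.

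Origins are licensed in G1, when the origin recognition complex, CDC6 and CDT1 load the ring of MCM2 to MCM7 on DNA. At the start of S phase cyclin E with its kinase fires the origins, CDC45 and the GINS complex turn the ring into an active helicase, and polymerases with their clamp PCNA copy the opened strands. Many of these genes are controlled by E2F transcription factors, which the retinoblastoma family holds in check until cyclin D kinases act. In skin such division is normally kept to the basal epidermis, the hair matrix and the base of the sebaceous gland, while differentiating keratinocytes leave the cycle.

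Of the 38 members with enough counts to test, 36 were higher in Klk6+ skin than in WT skin, 1 was lower (E2f1) and 1 did not pass the test (Ccnd1), against 37.7% of all 14861 genes called higher and 35.1% called lower (edgeR's quasi-likelihood test with sex as a covariate, Benjamini-Hochberg adjusted p below 0.05). Most of the skin transcriptome therefore differed between genotypes, and 72.8% of genes were called in either direction. The size of the members' differences is read against that background: 33 members were called and at least 2-fold higher, against 15.7% of all genes, and 10 were at least 4-fold higher, against 5.79%. The members' median log2 fold change was 1.49 (range -0.53 to 3.72), beside 0.04 over all genes tested. For 35 members every Klk6+ mouse was above every WT mouse, which held for 30.1% of all genes. Together the 39 genes took 0.161%, 0.164%, 0.172%, 0.190% and 0.181% of the counts in Klk6+ mice 1 to 5, against 0.0955%, 0.0817%, 0.0815%, 0.0679% and 0.0550% in WT mice 1 to 5. Skin was taken as bulk tissue, so a change in the number of cells of a type and a change in RNA per cell cannot be told apart.

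Library totals were 26521019 to 39796511 counts in Klk6+ mice and 32798416 to 41970272 in WT mice, so that 1 count was worth 0.0230 to 0.0373 CPM (counts scaled to a common library size with TMM factors). Klk6 itself was at 10293 to 14773 CPM in Klk6+ mice and at 12.7 to 26.5 CPM in WT mice, with no overlap. Klk6 was thus high in every Klk6+ library although doxycycline, which turns a Tet-off transgene off, had been returned weeks before by the labels, and the labels do not resolve this. Each library is labelled as 1 mouse, and no batch is named in the labels. Lists of cell type markers moved with genotype as well, beside 37.7% of all genes called higher and 35.1% called lower. The summed level of 12 skeletal muscle genes was 4229 to 8712 CPM in Klk6+ mice, against 56003 to 85259 CPM in WT mice, and 12 of 12 were lower. All 9 tested neutrophil genes were higher. The sum of the 11 neutrophil genes measured, tested or not, was 79.6 to 449 CPM in Klk6+ mice and 6.25 to 22.2 CPM in WT mice. In the other direction, 10 of 10 macrophage and monocyte genes, 8 of 8 fibroblast genes and 6 of 6 endothelial genes were lower. Of 6 adipocyte genes 5 were lower and 1, Pparg, was higher. With the listed muscle and neutrophil genes taken out of the library sizes, 36 members were again called higher. Other genes of these cells stayed in, and the part of the marker shifts in the members' differences was not tested.

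**Figure D1:**
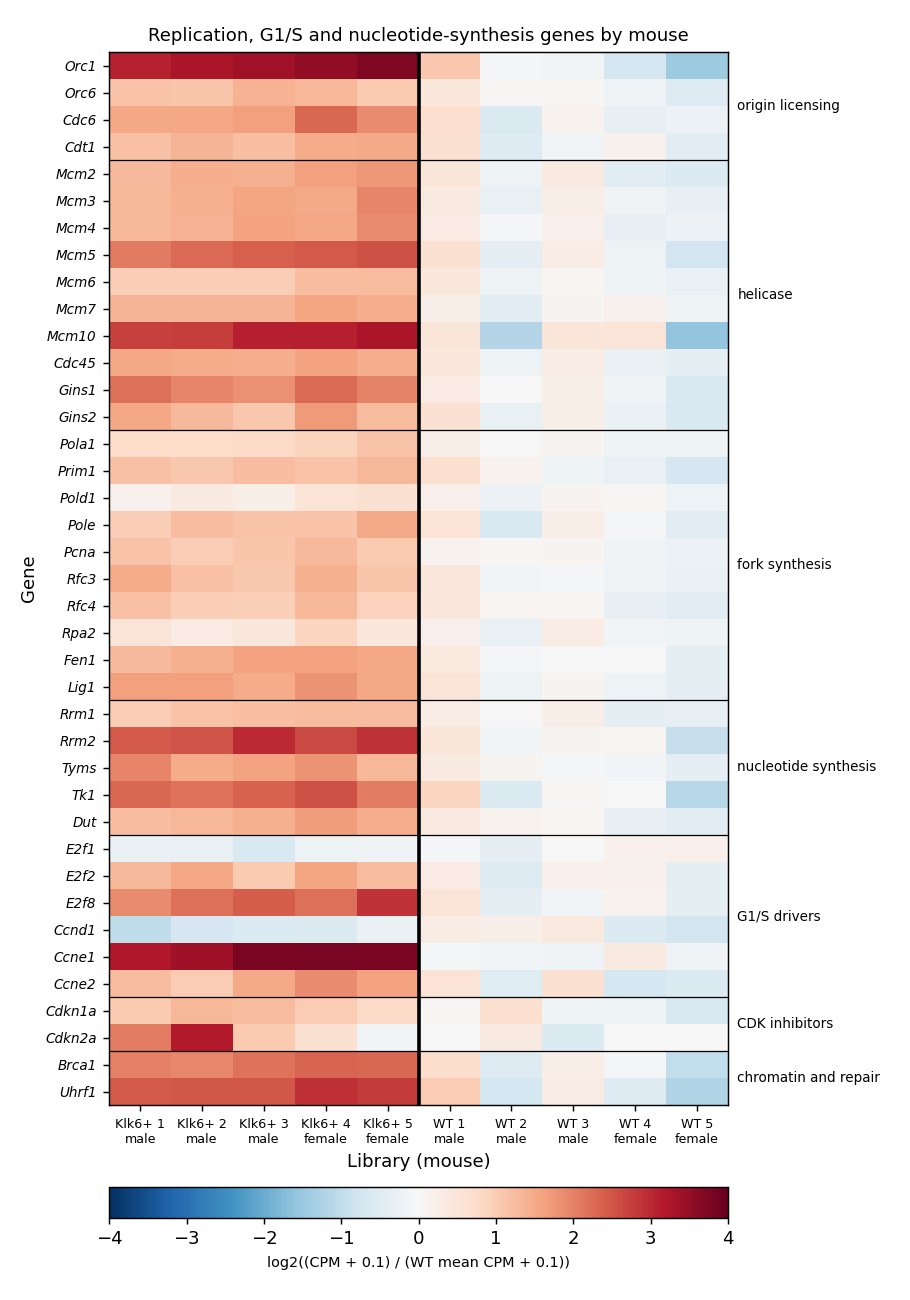
Heat map of the 39 genes (rows, grouped by role) in the 10 mice (columns, Klk6+ on the left, WT on the right); colour is log2 of CPM plus 0.1 over the WT mean CPM plus 0.1, red above and blue below. All rows but those of E2f1, Ccnd1, Pold1 and Cdkn2a separate the 5 Klk6+ columns from the 5 WT columns, and Orc1, Ccne1 and Mcm10 are the darkest among the tested genes.

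Promoters of the members were read from RefSeq (GRCm38.p6), which gave 41 windows of 250 bases before to 50 bases after a start for 33 of the 39 genes. The E2F consensus TTTNNCGC, searched on both strands, was in 17 of 41 windows (41.5%) and in 15 of 33 genes, against 7.44% of 14326 windows of tested genes and 5.17% of all 32851 windows. CCAAT was in 58.5% of the members' windows, against 37.0% in tested genes. The GC box GGGCGG was in 70.7%, against 58.3%, and the CHR element TTTGAA, known from late cell-cycle promoters, in 12.2%, against 12.4%. An E2F match can lie on both strands at overlapping positions, and in none of the 17 windows did it share bases with a GC box. The 14 tested members with an E2F match had a median log2 fold change of 1.51 (range 0.39 to 3.72) and the 18 without 1.49 (range -0.30 to 3.68). The value of -0.30 is that of E2f1, whose only window lies inside the gene as GENCODE M21 bounds it. A match describes letters in the window and is not evidence of a bound factor, nor does its lack say anything of the factor.

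Printed in full, 5′ to 3′ on the gene's strand, are the windows of the licensing gene with the largest difference (Orc1, chr4:108579204-108579503, plus strand), of the helicase ring gene with the largest difference (Mcm5, chr8:75109259-75109558, plus strand) and of the G1/S gene with the largest difference (Ccne1, chr7:38107441-38107740, minus strand). Capitals mark E2F matches: Orc1 has 1 just before the RefSeq start (inside the gene as GENCODE M21 bounds it), Mcm5 has 2 overlapping ones on opposite strands, and Ccne1 has none in this window.
Orc1: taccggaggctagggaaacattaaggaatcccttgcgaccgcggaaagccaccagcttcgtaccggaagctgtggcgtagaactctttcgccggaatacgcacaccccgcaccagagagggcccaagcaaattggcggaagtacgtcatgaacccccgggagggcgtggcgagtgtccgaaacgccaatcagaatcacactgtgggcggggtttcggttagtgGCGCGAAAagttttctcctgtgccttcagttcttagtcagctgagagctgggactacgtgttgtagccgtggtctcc
Mcm5: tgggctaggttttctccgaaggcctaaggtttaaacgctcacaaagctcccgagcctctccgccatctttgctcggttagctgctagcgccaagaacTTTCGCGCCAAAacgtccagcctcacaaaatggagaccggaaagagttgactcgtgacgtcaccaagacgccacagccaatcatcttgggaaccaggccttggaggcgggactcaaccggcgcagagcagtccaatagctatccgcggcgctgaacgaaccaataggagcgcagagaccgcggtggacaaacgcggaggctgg
Ccne1: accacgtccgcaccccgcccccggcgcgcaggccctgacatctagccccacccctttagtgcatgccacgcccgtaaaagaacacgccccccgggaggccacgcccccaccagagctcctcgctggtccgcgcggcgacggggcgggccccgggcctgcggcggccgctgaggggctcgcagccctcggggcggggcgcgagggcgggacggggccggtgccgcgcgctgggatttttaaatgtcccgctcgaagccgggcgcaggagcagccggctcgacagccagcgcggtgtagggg

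The matches of other members are shown with up to 10 bases on each side, to compare the site across roles: the ring genes Mcm6 (chr1:128359735-128359762), Mcm7 (chr5:138171850-138171877) and Mcm3 (chr1:20820276-20820303), the licensing genes Cdt1 (chr8:122568037-122568064) and Cdc6 (chr11:98908003-98908030), the clamp loader gene Rfc3 (chr5:151651201-151651228), the polymerase genes Pola1 (chrX:93632276-93632303) and Pold1 (chr7:44548766-44548786), and E2f2 (chr4:136172268-136172295). Capitals mark the 8 matched bases, which read as the consensus or, where the match is on the other strand, as its reverse complement. The Rfc3 stretch ends in a second match, on the other strand, which is left in lower case. As GENCODE M21 bounds the genes, the stretches of Mcm7, Mcm3, Cdt1, Cdc6, Rfc3 and Pold1 lie inside the gene. Those of Mcm6, Pola1 and E2f2 lie before it.
Mcm6: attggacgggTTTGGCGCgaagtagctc
Mcm7: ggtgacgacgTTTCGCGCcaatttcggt
Mcm3: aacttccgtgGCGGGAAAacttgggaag
Cdt1: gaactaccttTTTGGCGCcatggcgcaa
Cdc6: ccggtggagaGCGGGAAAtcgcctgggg
Rfc3: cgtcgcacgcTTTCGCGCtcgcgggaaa
Pola1: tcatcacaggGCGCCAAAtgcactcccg
Pold1: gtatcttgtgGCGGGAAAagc
E2f2: aggcgcggcaTTTTCCGCgggagatccg

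The 4 genes of origin licensing, the earliest step, all rose (median log2 fold change 1.61, range 1.23 to 3.72), where 37.7% of all genes were called higher. Orc1 (chr4:108579423-108614833), the largest subunit of the origin recognition complex, was at 4.87, 5.51, 5.87, 6.82 and 7.75 CPM in Klk6+ mice 1 to 5, against 1.15, 0.457, 0.449, 0.263 and 0.119 CPM in WT mice 1 to 5. Every Klk6+ mouse was above every WT mouse, and WT 5 lay lowest. The log2 fold change of 3.72 ± 0.47 (SE, adjusted p = 5.2e-05) was the largest of all members, and it rests on 50, 19, 15, 9 and 4 counts in WT mice. Orc6, a small subunit of the same complex, differed least in the role, with 23.4, 22.9, 28.0, 26.5 and 22.1 CPM in Klk6+ mice, against 14.1, 11.0, 10.8, 9.54 and 7.41 CPM in WT mice. Its groups were again apart, and its log2 fold change was 1.23 ± 0.14 (adjusted p = 2.85e-05). Cdc6, the loader ATPase, rose by 1.85 ± 0.28 and Cdt1, its partner in loading the ring, by 1.36 ± 0.22 on the log2 scale.

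All 10 helicase genes rose with no overlap between genotypes (median log2 fold change 1.56, range 1.10 to 3.11). Of all genes, 37.7% were called higher and 30.1% were higher with no overlap. Mcm10, which helps to activate the loaded helicase, was at 8.42, 8.57, 10.8, 10.9 and 12.0 CPM in Klk6+ mice, against 1.68, 0.457, 1.67, 1.70 and 0.328 CPM in WT mice. WT 2 and WT 5 were well below the other WT mice, and all 5 lay below the Klk6+ mice (log2 fold change 3.11 ± 0.45, adjusted p = 0.000127). Gins1 and Gins2, subunits of the GINS complex, rose by 2.13 ± 0.20 and 1.44 ± 0.24, and Cdc45, the third part of the active helicase, rose by 1.55 ± 0.17 on the log2 scale.

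The 6 ring genes code for proteins that form a complex with 1 copy of each, so their levels can be set side by side per length (FPKM, fragments scaled to transcript length and library size). Mcm5 stood at 18.9, 20.6, 22.7, 25.4 and 26.4 FPKM in Klk6+ mice, against 6.95, 3.28, 5.44, 3.87 and 2.57 FPKM in WT mice. Mcm2 stood at 13.3, 14.0, 14.0, 17.5 and 18.5 FPKM in Klk6+ mice, against 7.72, 4.51, 6.81, 4.01 and 3.63 FPKM in WT mice. Mcm5 was the lowest ring gene in all 5 WT mice and Mcm2 in all 5 Klk6+ mice. Mcm6 stood at 21.1, 20.2, 20.5, 26.3 and 26.2 FPKM in Klk6+ mice, against 14.7, 8.85, 11.0, 9.56 and 8.77 FPKM in WT mice. Mcm7 stood at 24.5, 23.3, 23.9, 30.0 and 26.9 FPKM in Klk6+ mice, against 11.3, 6.79, 10.1, 10.8 and 8.35 FPKM in WT mice. These were the pair at the top of the ring in WT skin: Mcm6 was highest in 4 WT mice and Mcm7 in WT 4, while Mcm7 was highest in 4 Klk6+ mice and Mcm3 in Klk6+ 5.

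Mcm3 stood at 17.4, 17.8, 20.2, 20.8 and 27.3 FPKM in Klk6+ mice, against 8.91, 5.39, 8.24, 6.25 and 5.47 FPKM in WT mice. Mcm4 stood at 14.9, 14.7, 17.6, 18.2 and 22.3 FPKM in Klk6+ mice, against 7.60, 5.39, 6.71, 4.70 and 4.96 FPKM in WT mice. None of the 6 genes overlapped between genotypes, where 30.1% of all genes were higher with no overlap in CPM. In counts, Mcm5 had the largest log2 fold change of the ring (2.39 ± 0.24, adjusted p = 1.11e-05) and Mcm6 the smallest (1.10 ± 0.15, adjusted p = 7.01e-05), with the other 4 between 1.43 (Mcm7) and 1.59 (Mcm3). The highest ring gene was 1.48 to 1.84 times the lowest in single Klk6+ mice, against 2.03 to 3.41 times in single WT mice. Mcm5 set the lower end in every WT mouse, and the lack of overlap in this ratio rests on that gene. Without Mcm5, WT 3 ran from 6.71 FPKM (Mcm4) to 11.0 FPKM (Mcm6). That ratio was smaller than the ratio of 24.5 FPKM (Mcm7) to 13.3 FPKM (Mcm2) in Klk6+ 1. The mean of the ring was 18.3 to 24.6 FPKM in Klk6+ mice and 5.62 to 9.53 FPKM in WT mice.

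**Figure D2:**
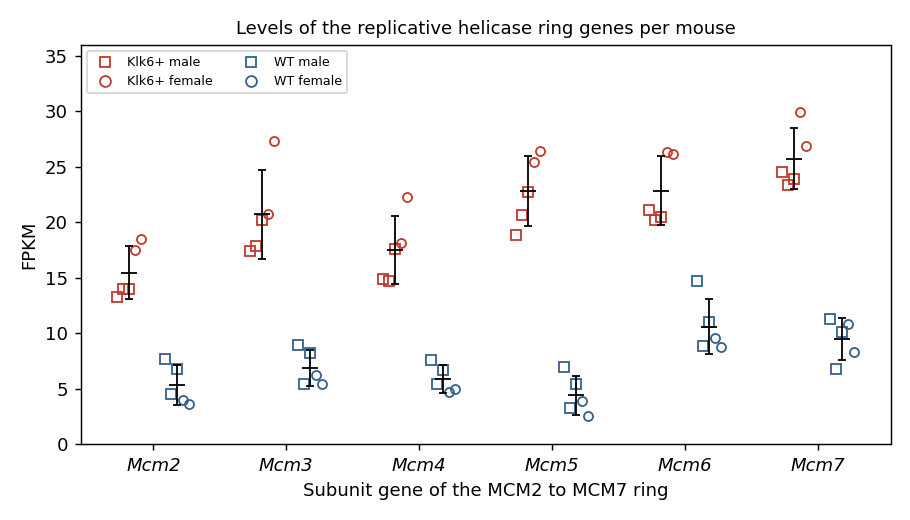
FPKM of the 6 helicase ring genes in each mouse (squares males, circles females, Klk6+ left of WT for each gene; bars are mean and SD of 5 mice). Each gene's Klk6+ points lie above its WT points, and Mcm5, the lowest ring gene in WT mice, is not the lowest in any Klk6+ mouse.

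All 10 genes of synthesis at the fork rose (median log2 fold change 1.18, range 0.39 to 1.65), and 9 of them had no overlap. The shares over all genes were 37.7% called higher and 30.1% higher with no overlap. Lig1, the ligase that joins Okazaki fragments, was at 39.3, 38.95, 35.1, 43.6 and 36.7 CPM in Klk6+ mice, against 17.8, 10.9, 13.5, 10.9 and 9.47 CPM in WT mice (log2 fold change 1.65 ± 0.16, adjusted p = 7.9e-06). Fen1, the flap nuclease of the same step, rose by 1.52 ± 0.14. Pcna, the sliding clamp, was at 124 to 153 CPM in Klk6+ mice and at 53.5 to 69.7 CPM in WT mice, with a log2 fold change of 1.12 ± 0.10 (adjusted p = 3.81e-06). The clamp loader genes Rfc3 and Rfc4 rose by 1.29 ± 0.16 and 1.12 ± 0.17, and the leading-strand polymerase Pole by 1.23 ± 0.23. Of the priming enzymes, the primase subunit Prim1 rose by 1.24 ± 0.20 and the polymerase alpha subunit Pola1 by 0.87 ± 0.12.

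Differences were smallest for Pold1 and Rpa2. Pold1, the catalytic subunit of the lagging-strand polymerase delta, was at 14.8, 17.0, 15.6, 19.5 and 20.5 CPM in Klk6+ mice, against 15.3, 11.3, 14.4, 13.8 and 11.6 CPM in WT mice. Klk6+ 1 was below WT 1, and the 2 Klk6+ females were highest. Its log2 fold change of 0.39 ± 0.13 (adjusted p = 0.0194) did not pass the threshold with upper-quartile scaling (adjusted p = 0.0827), with library totals alone (0.0533), or without Klk6+ 4 (0.0857), Klk6+ 5 (0.0955), WT 2 (0.0514) or WT 5 (0.0694). Rpa2, a subunit of the protein that coats single-stranded DNA and acts in repair too, was at 28.2, 24.8, 26.8, 35.3 and 26.5 CPM in Klk6+ mice, against 22.6, 15.8, 24.0, 18.3 and 17.2 CPM in WT mice. The groups were apart by a small gap, and the log2 fold change was 0.53 ± 0.15 (adjusted p = 0.00731).

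All 5 genes of nucleotide synthesis rose with no overlap (median log2 fold change 1.66, range 1.19 to 2.73), against 37.7% of all genes called higher and 30.1% higher with no overlap. Ribonucleotide reductase, which makes deoxynucleotides, has a large subunit (Rrm1) and a small subunit that is either Rrm2, known for its S phase use, or Rrm2b, a p53-induced form known from cells that do not divide. Rrm2 was at 68.4, 70.3, 97.2, 76.6 and 92.3 CPM in Klk6+ mice, against 17.2, 11.4, 13.4, 13.1 and 6.48 CPM in WT mice (log2 fold change 2.73 ± 0.23, adjusted p = 3.32e-06). Rrm1 was at 96.3, 108, 114, 119 and 117 CPM in Klk6+ mice, against 60.0, 49.2, 58.6, 38.7 and 39.4 CPM in WT mice (1.19 ± 0.13, adjusted p = 2.14e-05). Rrm2b, from the list of other pathway genes, fell to 13.8 to 16.5 CPM in Klk6+ mice, against 28.5 to 39.4 CPM in WT mice (-1.06 ± 0.10, adjusted p = 8.46e-06). The small subunits thus differed in opposite directions: Rrm2 counts were 4.15 to 6.22 times Rrm2b counts in Klk6+ mice and 0.214 to 0.539 times in WT mice, in a ratio of CPM not corrected for length. Tk1, the salvage enzyme thymidine kinase, rose by 2.34 ± 0.31, Tyms, which makes thymidylate, by 1.66 ± 0.14, and Dut, which clears dUTP, by 1.46 ± 0.16. In FPKM, Rrm2 was the third most abundant member in Klk6+ skin (35.4 FPKM on average), after Cdkn1a and Pcna, while Ccnd1 held that place in WT skin (22.9 FPKM).

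**Figure D3:**
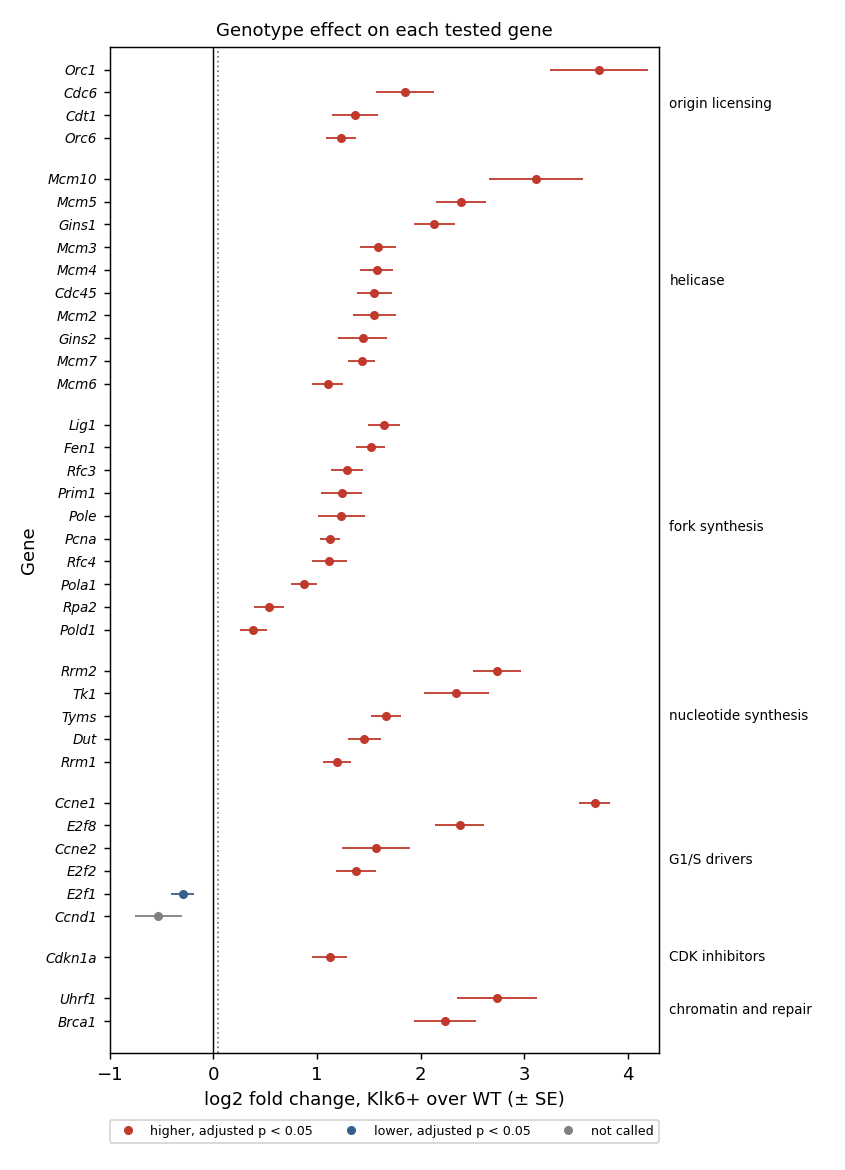
Log2 fold change (Klk6+ over WT, point) with its model SE (bar) for the 38 tested genes, sorted within each role; the dotted line is the median of all genes tested (0.04). Red points are called higher, the blue point (E2f1) is called lower and the grey point (Ccnd1) is not called, and all role groups but the G1/S drivers lie wholly to the right of the line.

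The 6 drivers of G1/S did not move as a group: 4 rose, E2f1 fell and Ccnd1 did not pass the test. Over all genes, 37.7% were called higher and 35.1% lower. Ccne1 (chr7:38097984-38107534), which encodes cyclin E1, was at 16.2, 18.7, 24.1, 24.5 and 24.0 CPM in Klk6+ mice, against 1.61, 1.54, 1.53, 2.17 and 1.52 CPM in WT mice. WT 4 was above the other 4 WT mice, and all 5 were far below the lowest Klk6+ mouse. Its log2 fold change of 3.68 ± 0.15 had the smallest p of the members (adjusted p = 1.04e-07). Ccne2, the other cyclin E, rose by 1.57 ± 0.33, with 4.84 to 8.98 CPM in Klk6+ mice and 1.40 to 3.65 CPM in WT mice.

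Ccnd1 (chr7:144929931-144939925), which encodes cyclin D1, was at 47.8, 60.9, 66.1, 65.0 and 79.8 CPM in Klk6+ mice, against 118, 112, 126, 66.0 and 58.1 CPM in WT mice. The 3 WT males were above every other mouse, and the 2 WT females lay within the Klk6+ range. The log2 fold change over both sexes was -0.53 ± 0.22 (adjusted p = 0.0534), close to the threshold, and it was called lower in 11 of 20 alternative settings. Cyclin E1 and cyclin D1 counts were therefore in another proportion: Ccne1 over Ccnd1 was 0.300 to 0.376 in Klk6+ mice and 0.0121 to 0.0328 in WT mice, as a ratio of CPM not corrected for length.

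The E2F genes differed among themselves. E2f1, an activator that is itself a known E2F target, was at 10.9, 10.6, 8.50, 11.4 and 11.8 CPM in Klk6+ mice, against 12.7, 10.2, 13.0, 14.7 and 14.9 CPM in WT mice. The groups overlapped through WT 2, and the fall of -0.30 ± 0.11 on the log2 scale (adjusted p = 0.0361) lost its call in 7 of 20 settings. These were the fit of genotype alone (adjusted p = 0.0640), the fit without a count filter (0.0548), and the fits without Klk6+ 3 (0.0662), WT 1 (0.0560), WT 3 (0.0616), WT 4 (0.0687) or WT 5 (0.0577). E2f2, a second activator, rose by 1.37 ± 0.19, with 17.0 to 24.8 CPM in Klk6+ mice and 5.78 to 10.3 CPM in WT mice. E2f8, an atypical E2F that represses, rose by 2.38 ± 0.24 (adjusted p = 1.06e-05) and was at 14.3, 17.8, 20.6, 17.8 and 28.8 CPM in Klk6+ mice, against 5.42, 2.96, 3.53, 4.16 and 2.87 CPM in WT mice, with no overlap.

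Of the inhibitors of cyclin-dependent kinases, Cdkn1a, which encodes p21, was at 395, 479, 452, 384 and 322 CPM in Klk6+ mice, against 198, 294, 169.8, 165 and 122 CPM in WT mice. WT 2 came nearest to the Klk6+ mice without reaching them, and the log2 fold change was 1.12 ± 0.17 (adjusted p = 0.000149). In FPKM it was the most abundant of the 39 genes in both genotypes. Cdkn2a fell short of the count filter, with 24, 46, 11, 6 and 2 counts in Klk6+ mice and 4, 6, 1, 3 and 3 counts in WT mice. Klk6+ 5 lay within the WT range in CPM, and the other 4 Klk6+ mice above it. Without the filter its log2 fold change was 2.39 (adjusted p = 0.0103), and the symbol covers both p16 and ARF, whose transcripts these tables do not separate.

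The 2 members of chromatin copying and repair rose, where 37.7% of all genes were called higher. Uhrf1, which guides the maintenance of DNA methylation behind the fork, was at 50.2, 51.4, 51.5, 69.1 and 64.3 CPM in Klk6+ mice, against 18.5, 5.56, 11.2, 6.26 and 3.91 CPM in WT mice (log2 fold change 2.73 ± 0.39, adjusted p = 0.000108). Brca1, of homologous recombination, was at 9.41, 8.82, 10.3, 11.6 and 11.4 CPM in Klk6+ mice, against 3.67, 1.54, 2.72, 2.14 and 1.07 CPM in WT mice (2.23 ± 0.30, adjusted p = 7.95e-05). In both genes WT 1 was the highest and WT 5 the lowest WT mouse. That order was common: WT 1 was the highest WT mouse for 31 of the 38 tested members and WT 5 the lowest for 27.

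**Figure D4:**
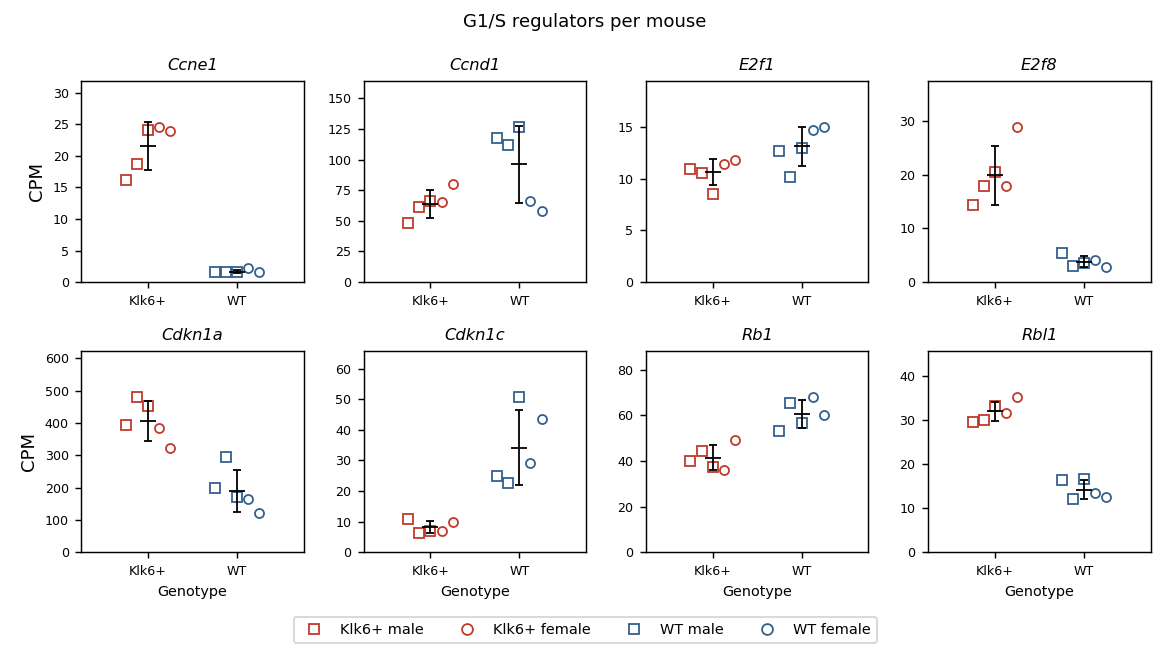
CPM per mouse of 5 members (Ccne1, Ccnd1, E2f1, E2f8, Cdkn1a) and 3 other G1/S regulators (Cdkn1c, Rb1, Rbl1); squares are males, circles females, Klk6+ left of WT, bars mean and SD of 5 mice, with a linear axis from 0 in each panel. The lowest Klk6+ value of Ccne1 is far above its highest WT value, the 3 WT males alone are high for Ccnd1, and Cdkn1c is lower in Klk6+ skin while Cdkn1a is higher.

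Other genes of the same pathway, on a list of 119, were called higher in 90 cases and lower in 15. Their median log2 fold change was 1.02. The shares over all genes tested were 37.7% higher and 35.1% lower. Of 28 other fork genes 27 rose, among them Top1, the topoisomerase that relaxes DNA ahead of the fork (1.24 ± 0.09), and the primase subunit Prim2 (1.28 ± 0.11), while Rpa1, the large partner of Rpa2, did not pass the test (-0.04 ± 0.09). Of 16 other licensing and firing genes 13 rose, among them Dbf4, which activates the origin-firing kinase (2.30 ± 0.12), and Gmnn, the inhibitor of CDT1 (1.95 ± 0.17), and Orc3 fell (-0.51 ± 0.10). Of 22 genes of chromatin assembly and replication-linked repair 20 rose and none fell, with Nasp, a histone chaperone, at 1.50 ± 0.12 and the helicase Blm at 2.00 ± 0.21. Of 29 other nucleotide enzymes 19 rose, led by Nme1 (2.31 ± 0.13), and 6 fell: Rrm2b, Samhd1, Paics, Adsl, Prps1 and Tk2. Samhd1, which degrades deoxynucleotides, fell by 1.16 ± 0.21 and overlapped between genotypes.

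The 24 other G1/S regulators were mixed and near the background of 37.7% of all genes higher and 35.1% lower. Of them 11 were higher and 8 lower (median log2 fold change 0.15). Those higher included Cks1b, a kinase subunit (1.98 ± 0.12), E2f4, an E2F known mainly as a repressor (1.06 ± 0.08), and Tfdp1, the E2F dimer partner (1.15 ± 0.10). The lower ones included E2f6, another repressive E2F (-1.55 ± 0.13), and Cdkn1c, which encodes the inhibitor p57 (-2.06 ± 0.26), at 6.38 to 10.9 CPM in Klk6+ mice and 22.5 to 50.5 CPM in WT mice. The retinoblastoma family split: Rbl1 rose by 1.17 ± 0.11, while Rb1 fell by 0.55 ± 0.10 and Rbl2 by 0.87 ± 0.09 on the log2 scale. Ccnd3, Cdkn1b, Cdkn2b, Cdkn2d and E2f5 did not pass the test.

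A list of 27 mitosis genes, set beside the members, rose in all 27 cases, where 37.7% of all genes tested were called higher. Its median log2 fold change was 2.53, beside 1.49 for the replication genes. Its summed level was 892 to 1106 CPM in Klk6+ mice and 109 to 278 CPM in WT mice. Among those of smallest p were Mybl2, a cell-cycle transcription factor (3.63 ± 0.24), and Cdc20, an activator of mitotic exit (3.53 ± 0.24). Of 12 p53 targets other than Cdkn1a, 4 were higher (Pmaip1, Sesn2, Perp and Bax) and 4 lower (Ccng1, Eda2r, Trp53inp1 and Phlda3), with a median of -0.04. These counts were near the shares over all genes tested, 37.7% higher and 35.1% lower. Ccng1 was at 131 ± 19.9 CPM in Klk6+ mice and 737 ± 141 CPM in WT mice (SD, n = 5 each).

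Markers of the skin cells that can divide were counted against the same background of 37.7% of all genes higher and 35.1% lower. Of 9 basal keratinocyte genes 4 were higher (Krt14, Krt5, Itga3 and Itga6) and 3 lower (Dst, Krt15 and Col17a1), shares near that background. Itgb4 and Trp63 did not pass the test. Their summed level was 13400 to 19561 CPM in Klk6+ mice, against 4037 to 10524 CPM in WT mice. Krt14 (mean 10052 CPM in Klk6+ and 931 CPM in WT mice) and Krt5 (5187 and 2530 CPM) made up most of the Klk6+ sum. The sum thus follows these keratins and not the list as a whole. Of 14 hair matrix and shaft genes 4 were higher and none lower, a count that ran from 1 to 10 over the alternative settings, and their sum spread widely within each genotype, from 33.4 to 3734 CPM in Klk6+ mice and from 31.6 to 268 CPM in WT mice. All 8 sebocyte genes were higher, with 5578 to 22684 CPM in Klk6+ mice and 3016 to 6665 CPM in WT mice, sums that overlap. Scd1 made up most of the sum in every mouse. Taken singly, 5 of the 8 genes had no overlap, against 30.1% of all genes higher with no overlap. Of 9 tested T and NK cell genes 7 were lower and none higher. No gene of these lists was at 0 in all mice of a genotype, and the part of these shifts in the members' differences was not tested.

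Members differed between the genotypes in both sexes. In males 34 of 38 members were higher and 1 was lower (Ccnd1), against 33.4% and 31.0% of all genes, with a median log2 fold change of 1.23. In females 36 were higher and none lower, against 31.2% and 28.4%, with a median of 1.86. For 37 of 38 members the effect was larger, on the signed scale, in females than in males, the exception being E2f1 (-0.26 ± 0.15 in males and -0.35 ± 0.18 in females). The difference itself, males minus females, had a median of -0.62 but was called for 0 of 38 members by the edgeR interaction test, where 0.00% of all genes were called; 15 members had an unadjusted p below 0.05, against 9.49% of all genes. The largest was that of Orc1 (-2.26 ± 0.65, adjusted p = 0.324), with 2.97 ± 0.39 in males and 5.22 ± 0.56 in females. The 2 WT females had only 9 and 4 counts of Orc1.

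Ccnd1 had the smallest p for the difference between sexes (-1.25 ± 0.22, adjusted p = 0.172). It fell in males (-1.03 ± 0.14, adjusted p = 0.00024) and did not pass the test in females (0.22 ± 0.17, adjusted p = 0.288). Cyclin E1 did not share this: the log2 fold change of Ccne1 was 3.66 ± 0.20 in males and 3.71 ± 0.25 in females. The shares of counts given above show where the sexes lay: the 2 females were the highest Klk6+ mice and the 2 lowest WT mice. With 2 females in each genotype, and WT 1 and WT 5 at the ends of the WT range, the difference between sexes rests on few mice. Marker sums also set the WT sexes apart: macrophage and monocyte genes summed to 1079 to 1901 CPM in the 3 WT males and to 3992 and 4674 CPM in the 2 WT females. Fibroblast genes summed to 22875 to 41516 CPM in WT males and to 12727 and 13671 CPM in WT females. Col1a1, Col1a2 and Col3a1 made up most of the fibroblast sums, and only these genes were lower in both WT females than in every WT male. Pdgfra went the other way, with 74.6 to 144 CPM in WT males and 222 and 284 CPM in WT females. Dcn, Lum, Fbn1 and Dpt overlapped between the WT sexes. Basal keratinocyte genes summed to 7010 to 10524 CPM in WT males and to 6531 and 4037 CPM in WT females. In Klk6+ mice the macrophage and monocyte sums were 336 to 730 CPM in males and 552 and 1240 CPM in females, and the fibroblast and basal keratinocyte sums of the sexes overlapped. The part of these differences in the sex pattern of the members was not tested.

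**Figure D5:**
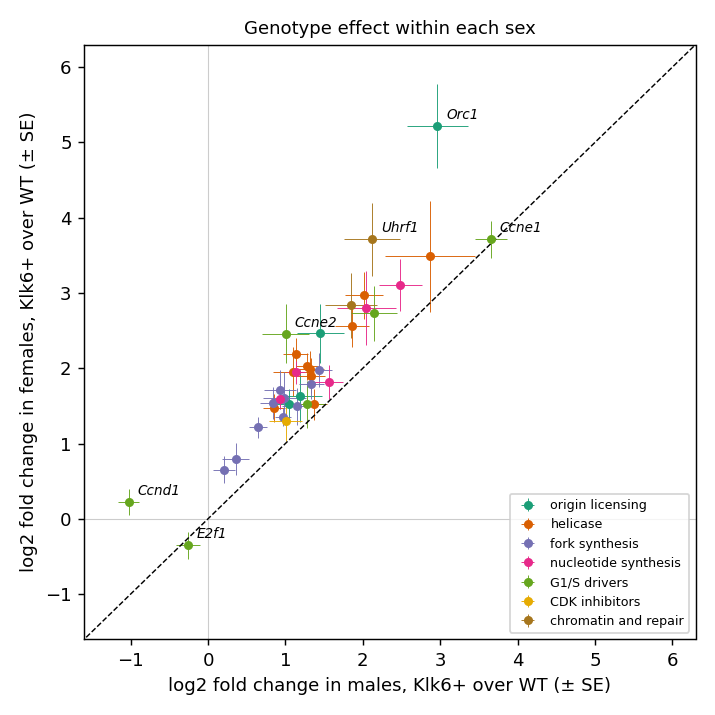
Log2 fold change (Klk6+ over WT, with SE) in females against males for the 38 tested genes, coloured by role; the dashed line marks equal effects. All points but E2f1 lie above the line, with Orc1 farthest above it and Ccnd1 on opposite sides of 0 in the 2 sexes; 0 of 38 differences between sexes passed the adjusted threshold.

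The kit does not mark strand, so members whose exons overlap another gene are less certain. By GENCODE M21 annotation, 78.8% of Fen1 exon bases overlap the antisense gene Gm10143, 67.3% of those of Gins2 overlap Gse1, 23.4% of those of Ccnd1 overlap LTO1 and 17.4% of those of Ccne2 overlap Ints8. Smaller overlaps were found for other members, the largest of these for Rfc4 (12.65%), E2f8 (11.21%) and Orc1 (10.81%). Pcna and Tyms have processed pseudogenes, and the counting of shared reads is not stated in the labels.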

How the data were processed

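RNA from snap-frozen, pulverised skin was made into polyA-selected TruSeq v2 libraries and sequenced as 50-cycle single-end reads, per the labels' protocols. The authors deposited 1 table per mouse with whole-number read counts per gene, not normalized, and with FPKM values, scaled by the authors to length and depth. TopHat2, SAMtools, HTSeq and Cufflinks 2.2.1 on GRCm38 are named in the submitters' processing notes, without roles; the labels do not state the annotation version, the strand setting or the handling of multiply mapped reads. Counts that fall on several genes can therefore be split or lost.

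Counts were tested in R 4.3.3 with edgeR 4.0.16 (filterByExpr, minimum count 10, 14861 genes; TMM scaling; quasi-likelihood F test of genotype with sex as covariate; Benjamini-Hochberg adjustment over all genes, threshold 0.05). Effects within each sex and their difference came from a model of 4 genotype-by-sex means. SE is the log2 fold change over the root of F. FPKM served only to compare levels between genes, and in limma 3.58.1 as an alternative with pseudocounts of 0.1 or 1; DESeq2 1.42.0, other scalings, no filter and leaving out mice were further alternatives. The common biological coefficient of variation was 0.244. Scripts were tested on simulated data. Promoters were scanned for fixed motifs in RefSeq windows (GRCm38.p6), and gene positions came from GENCODE M21.

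The members and lists were chosen with earlier results of these data known, so their direction is not independent evidence. Of 253 genes on the lists, 250 matched the tables as written and 1 through a synonym. Per-mouse values are given for the member of largest and of smallest change in each role and for the helicase ring. They are also given for members lower or not called and members whose call an alternative changes. Cell type lists are given by counts or sums, with called genes named for some of them. From the pathway, mitosis and p53 lists, up to 3 called genes per direction by smallest p are named, and all genes of a direction with 5 or fewer. Genes named outside this rule (Cdc6, Cdt1 and other members, Samhd1, Rpa1, Rb1, Rbl1 and those not called) were chosen after their values were seen. Replicate libraries of a genotype differed by far more than sampling noise (chi-square per degree of freedom of at least 40.7).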

Additional observations from a re-analysis of the deposited data

Results flagged for a closer look

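Of 76 sets of 5 mice examined, 2 held a mouse far from the other 4, where chance alone gives about 1 in 20. Rfc3, a clamp loader gene, was at 8.96 CPM in WT 1, against 5.43 to 6.22 CPM in the other WT mice, and still below the Klk6+ mice (14.0 to 18.4 CPM). Ccne1 was at 2.17 CPM in WT 4, against 1.52 to 1.61 CPM in the other WT mice, also far below the Klk6+ mice (16.2 to 24.5 CPM).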

How the results depend on the processing

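No paired analysis was possible because replicate numbers were given in accession order and the labels pair no mice across genotypes. Across the 20 alternative settings no member changed direction, 35 to 37 members were called higher, and for all members but Pold1, E2f1, Ccnd1 and Cdkn2a (tested in 1 setting) the calls were the same. The count of members called lower was 1, and it was 2, with Ccnd1 added, under RLE scaling (adjusted p = 0.0465), upper-quartile scaling (0.0254), library totals alone (0.0411), scaling without muscle and neutrophil genes (0.0396), DESeq2 (0.0252) and limma-voom (0.0456). It was 0 without a count filter. Leaving out each mouse gave 0 to 2: 0 without Klk6+ 3, WT 1 or WT 3, and 2 without Klk6+ 4 or Klk6+ 5. Within males it was 1 to 2, with 2 without WT 2. The difference between sexes was called for 0 to 4 of all genes when a mouse was left out (1 without Klk6+ 4, 4 without WT 3). The fit on log2(FPKM + 1) understates low genes: the members' median was 1.20 there, and Orc1 had 1.33. Depth limits Cdkn2a most, at 1 to 46 counts a mouse. It also limits the WT levels of Orc1 (4 to 50 counts) and Mcm10 (11 to 73 counts), and so the size of their fold changes. Scaling moved the median of all genes between 0.04 and -0.06. The number of hair matrix genes called higher ran from 1 to 10.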
